A study of Anguilla japonica with 6 samples.

Results

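The 8 genes described here, which carry lipid into cells or store it there, were compared between immature gonads of the Japanese eel (Anguilla japonica). They are vldlr, scarb1, lrp1, lrp1b, cidec, dgat2, pparg and cebpa. A transcript was counted for a gene when its best SwissProt protein match came from a vertebrate and bore that gene symbol, and the values of all its transcripts were summed. The 8 genes took 46 of 35011 full-length transcripts, and the table named 9262 distinct symbols in all. The genes were picked by name for their function, with earlier results of these data known, so that their number of calls is a description.

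The animals were silver-stage eels raised in aquaculture. Their gonads had already differentiated into ovary or testis, were still immature, and had not been stimulated with hormones. Ovary came from 3 females and testis from 3 males, 1 library per fish. Transcript models were built from long PacBio reads of ovary or testis, and their levels came from short Illumina reads of the 6 libraries.

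In egg-laying vertebrates the liver secretes vitellogenin, the yolk precursor, which travels in the blood to the growing oocyte. There a receptor of the low-density lipoprotein (LDL) receptor family, encoded by vldlr and often called the vitellogenin receptor, takes it up through clathrin-coated pits. Yolk proteins are then cleaved by cathepsins, while neutral lipid is kept in droplets whose making needs enzymes such as diacylglycerol acyltransferase and coat proteins such as the perilipins and CIDE proteins. None of the 7 vitellogenin symbols searched was matched by a transcript of the table.

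The libraries held 11913969 to 18508307 estimated read counts. Levels are given as FPKM, fragment counts scaled by transcript length and library depth, which allows genes to be compared per length. Of 12367 genes tested with edgeR's quasi-likelihood test, 45.9% had a Benjamini-Hochberg adjusted p under 0.05, 21.1% with higher levels in ovary and 24.8% with higher levels in testis. That threshold is what "called" means here, and log2 fold changes are testis minus ovary with their standard error. They come from counts scaled between libraries by edgeR, whereas differences given as a fold are ratios of mean FPKM. FPKM summed over a library ran from 721650 in ovary 2 to 1312673 in testis 3, so a fold and its log2 value can differ. Markers of other cell types were present in both tissues. Summed FPKM of 3 leukocyte markers was 3.03 to 5.11 in ovaries and 38.6 to 47.1 in testes. The summed level of 8 male germ cell markers was 190 to 231 FPKM in ovaries and 992 to 2027 FPKM in testes. Most of the ovary sum was piwil1 (114 to 160 FPKM) and piwil2 (39.9 to 49.9 FPKM), both called higher in testis. In ovaries dmc1, hormad1 and sycp1 were at 1.71 FPKM or less, and meiob overlapped between tissues and was not called. Summed FPKM of 3 red blood cell markers was 150 to 187 in ovaries and 1411 to 3886 in testes. In testis 1 cahz alone was at 3723 FPKM. There hbb1 (159.9) and alas2 (3.17) lay within their ovary ranges of 147 to 182 and 0.72 to 3.44 FPKM. Both were above those ranges in testes 2 and 3. Summed FPKM of 7 muscle markers was 1215 in testis 1, against 105 and 265 in the other testes and 182 to 258 in ovaries. Nearly all of the ovary sum was myl9 (172 to 248 FPKM), which was not called. The muscle markers acta2, myh11, tagln and cnn1 were called higher in testis. The egg envelope genes zp1 to zp4, made by oocytes, took 20.8%, 19.5% and 22.6% of ovary counts, and 0.115%, 3.37% and 0.846% of the counts of testes 1, 2 and 3. In such bulk tissue, fewer cells of a type and less RNA per cell cannot be told apart.

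All 8 genes were called, against the 45.9% of all genes. The genes vldlr, scarb1, cidec and dgat2 were higher in ovary, and lrp1, lrp1b, pparg and cebpa were higher in testis. Ovary and testis levels did not overlap for any of the 8, as they did not for 59.2% of all genes tested. By mean FPKM in ovary the order was vldlr, cidec, scarb1, dgat2, lrp1, lrp1b, cebpa and pparg. The ranges of cidec (84.7 to 93.1) and scarb1 (72.8 to 102) overlapped there, as did those of cebpa (0.42 to 0.51) and pparg (0.11 to 0.46). In testis the order was cidec, lrp1b, vldlr, lrp1, scarb1, pparg, cebpa and dgat2. The first 4 of these overlapped, since lrp1b ranged from 7.03 to 26.8 FPKM and lrp1 from 9.33 to 22.6 FPKM around the values of cidec and vldlr. Further down, lrp1b overlapped with scarb1 (5.25 to 7.38), scarb1 with pparg (2.11 to 6.24), pparg with cebpa (1.21 to 2.84), and cebpa with dgat2 (0.4 to 3.37), so no neighbours in the testis order were apart beyond their spread except lrp1 and scarb1.

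**Figure D1:**
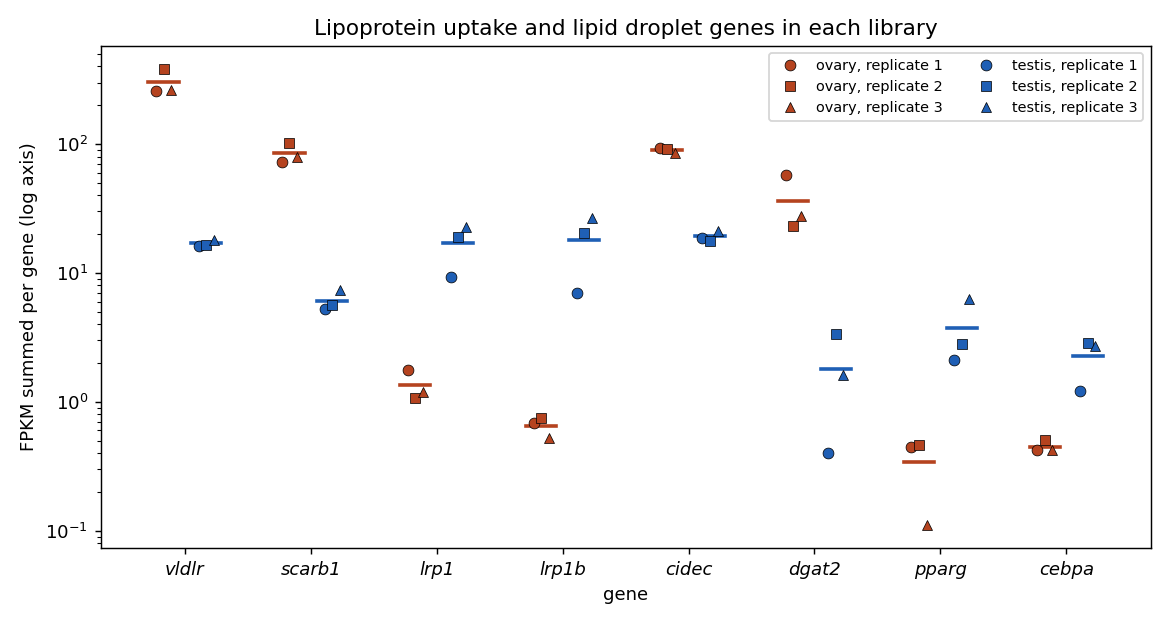
FPKM summed per gene (log axis) for the 8 genes, with 1 point per library, marker shape for the replicate and a bar for the mean of each tissue. Ovary points lie above testis points for vldlr, scarb1, cidec and dgat2, and below them for lrp1, lrp1b, pparg and cebpa.

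The vitellogenin receptor gene vldlr had the highest level of the 8 in ovary. Its FPKM was 257, 384 and 265 in ovaries 1 to 3, and 16.2, 16.6 and 18.1 in testes 1 to 3. Ovary exceeded testis 17.8-fold, 302 ± 71.0 against 16.96 ± 1.02 (SD, n = 3 each), and the 3 testes stood close together. The log2 fold change was -4.54 ± 0.367 (edgeR adjusted p = 0.000921). Its 28 transcripts were 2788 to 4199 bases long, rested on 297 full-length long reads and had all been built from ovary RNA. Of all 35011 transcripts, 22549 were built from ovary RNA. The LDL receptor class A domain, the repeat by which this family binds its ligands, was annotated in 26 of the 28 and the EGF-like domain in 23.

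The 28 transcripts did not all match the same messenger. The best nucleotide match of 25 was the known Japanese eel vitellogenin receptor messenger. The other 3, of 3177 to 3294 bases, had no nucleotide match listed; their best protein matches were an LRP8-like protein for 2 and the CD320 antigen for 1. LRP8 is another receptor of the LDL receptor family, and CD320 is the cell receptor for vitamin B12 bound to transcobalamin. All 3 carried an LDL receptor class A domain and none an EGF-like domain, whereas 23 of the 25 receptor transcripts carried both. The 25 rested on 172 of the full-length long reads and the other 3 on 125. Estimated counts were fractional for each of the 28 transcripts in some library, but summed within each of these sets they came within 0.02 of a whole number in all 6 libraries. This separation was made after the values had been seen.

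The 25 receptor transcripts had 11403, 17626 and 14513 counts in ovaries 1 to 3, and 15, 300 and 103 counts in testes 1 to 3. Their FPKM was 197, 325 and 222 in ovaries, and 0.34, 6.02 and 2.64 in testes. Every ovary was far above every testis, and the testes themselves spread widely, testis 1 being lowest. The ovary mean was 82.6-fold the testis mean, 248 ± 67.9 against 3.0 ± 2.86 FPKM (SD, n = 3 each). The log2 fold change was -6.55 ± 1.14 (edgeR adjusted p = 0.00468), and -7.74 without testis 2. Of the 25 transcripts, 12 had no count in any testis, which over the 3 testes together allows up to 0.0772 CPM (counts scaled to library size), and 22 had none in testis 1. This limit covers counting error only, and not error in how counts were estimated for single transcripts. Testis 1 had 15 counts over all 25 transcripts, so its number without a count says little about single transcripts.

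The 3 transcripts without the receptor match gave another picture. Their FPKM was 60.2, 59.1 and 43.4 in ovaries, and 15.9, 10.6 and 15.5 in testes. Summed, they too were higher in every ovary, by 3.88-fold (log2 fold change -2.22 ± 0.275, edgeR adjusted p = 0.00176). Most of their counts, 77.9% to 87.8% in ovaries and 98.5%, 67.8% and 77.4% in testes 1 to 3, came from a 3294-base transcript seen in 105 full-length reads, at 46.5, 46.5 and 38.0 FPKM in ovaries and 15.6, 7.07 and 11.9 FPKM in testes. This was the vldlr transcript with the highest mean over the 6 libraries. The 3177-base transcript, matched to CD320, overlapped between tissues and was not called. It was at 1.03, 1.94 and 0.17 FPKM in ovaries and 0.24, 2.92 and 3.21 FPKM in testes, with the higher mean in testis.

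The makeup of the vldlr sum therefore differed between tissues. Receptor-matched transcripts held 78.4%, 86.7% and 85.7% of vldlr counts in ovaries and 2.24%, 41.5% and 15.7% in testes. Every ovary share was above every testis share, 83.6 ± 4.54% against 19.8 ± 20.0% (SD, n = 3 each; two-sided exact permutation p = 0.1, the smallest that 3 against 3 can give). The 3294-base transcript on its own held 16.8%, 10.5% and 12.5% in ovaries and 96.3%, 39.7% and 65.3% in testes (exact permutation p = 0.1). The even vldlr level of the 3 testes was thus mostly that of transcripts without the receptor match.

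**Figure D2:**
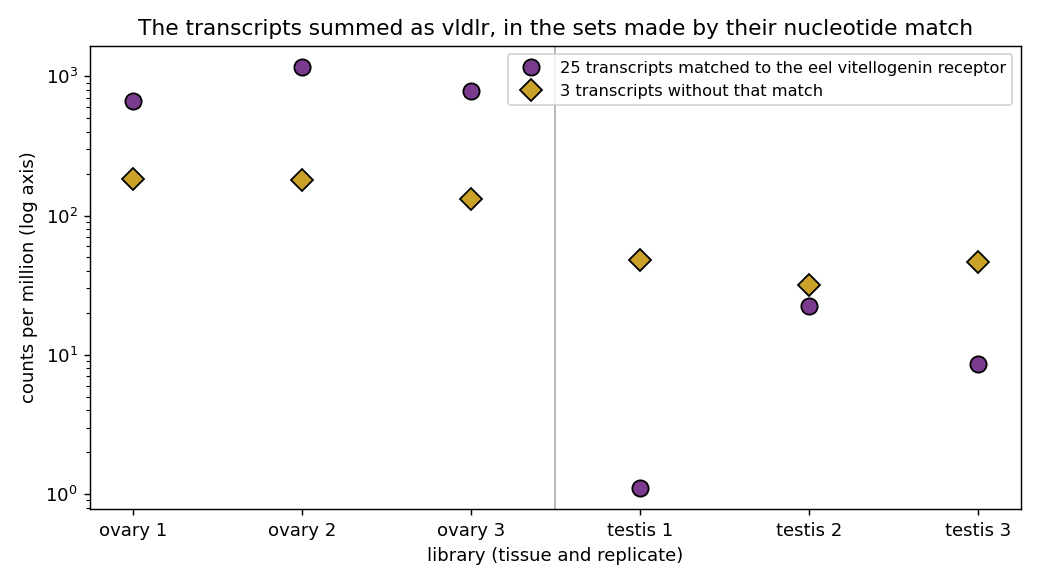
CPM, counts scaled to library size (log axis), in each library for the 25 vldlr transcripts matched to the eel vitellogenin receptor (circles) and the 3 without that match (diamonds). Receptor transcripts lie above the others in all 3 ovaries and below them in all 3 testes, from 1.10 to 22.5 CPM against 31.7 to 48.2.

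The estimated counts of single receptor transcripts differed from ovary to ovary far more than their sum did. In ovary 1 a 3824-base transcript held 42.9% of the receptor counts, while it held 0.257% in ovary 2 and 4.60% in ovary 3. In ovary 2 a 4199-base transcript led with 21.5%, against 0.130% and 4.91% in ovaries 1 and 3. In ovary 3 a 4123-base transcript led with 33.4%, against 24.0% and 0.458% in ovaries 1 and 2. Of the 25 transcripts, 21 differed more than 10-fold between the highest and the lowest ovary, counting each as its count plus 1. Their sum differed 1.55-fold, in counts not scaled to library size. The number of transcripts needed to reach 80% of the receptor counts was 3, 8 and 6 in the 3 ovaries. Whether these transcripts share reads, and how the counting divides such reads, was not tested; their counts were fractional and those of the sum whole. The shares of single transcripts are therefore estimates. By themselves they do not show that the ovaries made different transcripts.

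**Figure D3:**
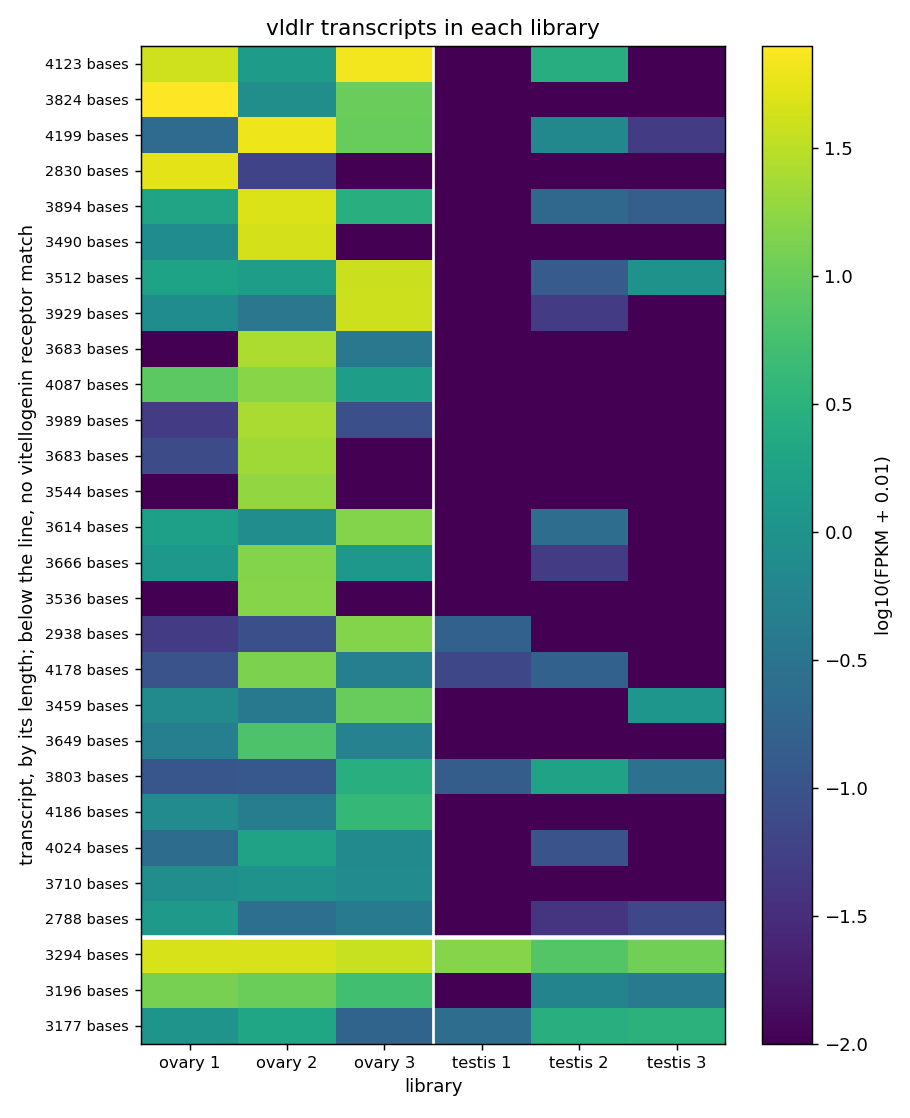
Level of each vldlr transcript, log10(FPKM + 0.01) by colour, in each library, in order of mean level with the 3 transcripts without the receptor match under the white line. By estimated level each ovary is led by a different receptor transcript, and the 3294-base transcript is present in all 6 libraries.

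Of the 28 vldlr transcripts, 18 passed the filter on low counts in a fit of all transcripts, and 4 of these were called, all higher in ovary: the 3294-base transcript and receptor transcripts of 3666, 3710 and 4087 bases (edgeR adjusted p from 0.0365 to 0.0466). Calls of member transcripts did not last: of the 8 over all genes, the number fell to 0 on leaving out any library but testis 1, and to 2 without testis 1. In that fit 4.4% of 30738 transcripts were called higher in ovary and 6.26% higher in testis. Across the 8 genes 34 of the 46 transcripts were tested, 6 were called higher in ovary and 2 higher in testis. Ovary and testis FPKM did not overlap for 26 of the 46, of which 23 were among the 34 tested; over all transcripts tested the share was 41.2%. The filter could be passed through either tissue alone. The called 3710- and 4087-base transcripts had no count in any testis and passed through the ovaries only. So did the called 3666-base vldlr transcript and a called 3046-base dgat2 transcript. Their counts in testes 1 to 3 were 0, 1.6 and 0, and 4.68, 3.4 and 0. For such transcripts the direction and the lack of overlap were largely set by the filter.

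Scavenger receptor class B member 1, encoded by scarb1, takes up cholesterol esters from high-density lipoprotein at the cell surface. Its FPKM was 72.8, 102 and 79.9 in ovaries and 5.25, 5.67 and 7.38 in testes. The tissues were well apart, 85.0 ± 15.4 against 6.1 ± 1.13 FPKM (SD, n = 3 each), a 13.9-fold difference (log2 fold change -3.83 ± 0.338, edgeR adjusted p = 0.000972). All 6 transcripts were built from ovary RNA and all carried the CD36 family domain. As with vldlr, each of the 6 differed more than 10-fold between ovaries, counting each as its count plus 1. Their sum differed 1.53-fold, in counts not scaled to library size. A 2375-base transcript was at 31.4 FPKM in ovary 1 and at 0.55 and 0.24 FPKM in ovaries 2 and 3. A 3979-base transcript was at 46.8 FPKM in ovary 2 and at 0.66 and 0.11 FPKM in ovaries 1 and 3. None of the 5 that were tested was called by itself. Counts of all 6 were fractional, and whether these transcripts share reads was not tested.

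The large LDL receptor-related proteins encoded by lrp1 and lrp1b are endocytic receptors of many body cells, with lipoproteins and proteases among the ligands of LRP1. Both were higher in testis. The level of lrp1 was 1.77, 1.07 and 1.19 FPKM in ovaries and 9.33, 18.96 and 22.6 FPKM in testes. Testis exceeded ovary 12.6-fold (log2 fold change 3.11 ± 0.460, edgeR adjusted p = 0.00280), and testis 1 was the lowest testis. The level of lrp1b was 0.68, 0.75 and 0.52 FPKM in ovaries and 7.03, 20.3 and 26.8 FPKM in testes, a 27.7-fold difference (log2 fold change 4.55 ± 0.646, edgeR adjusted p = 0.00248). The testes followed the same order for both genes. The summed level of the 3 leukocyte markers (mpeg1, coro1a and itgb2) was also higher in testis. It was 47.1, 41.6 and 38.6 FPKM in testes 1 to 3, most of it itgb2 (36.05, 31.7 and 28.4 FPKM). The sum, itgb2 and mpeg1 fell from testis 1 to testis 3, the reverse of the order of lrp1 and lrp1b. The marker coro1a, at 8.99, 9.57 and 10.04 FPKM, had the order of lrp1 and lrp1b. Summed FPKM of 5 Sertoli and Leydig cell markers was 134, 143 and 362 in testes 1 to 3. In ovaries it was 91.3 to 150, most of it hsd3b (88.1 to 142), a gene called higher in ovary. The sum of 4 markers listed for follicle somatic cells was 29.9, 142 and 306 FPKM in testes and 27.9 to 73.0 FPKM in ovaries. Most of it was hsd17b1, except in testis 1, where cyp17a1 (25.2 FPKM) led. Of these 4, amhr2 was called higher in testis and none was called higher in ovary. The Sertoli and Leydig sum and the follicle sum had the order of lrp1 and lrp1b. So did dmrt1, star, amhr2, cyp17a1 and hsd17b1 among their markers. The order of cldn11 (56.25, 38.6 and 141 FPKM), hsd11b2, hsd3b and foxl2 was another. The part of any of these cells in the lrp1 and lrp1b difference was not tested. An lrp1 transcript of 6012 bases was built from ovary RNA and an lrp1 transcript of 2863 bases from testis RNA. The LDL receptor class A domain was annotated in the 6012-base transcript only. Whether both are parts of the same messenger, which the lrp1 sum would then count more than once, was not tested. The lrp1b gene had a testis-built transcript of 2542 bases, annotated with an EGF-like domain and without an LDL receptor class A domain. Whether it is a part of a longer messenger was not tested.

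The lipid droplet protein cidec (CIDEC, or FSP27 in mouse) sits where droplets touch and lets them exchange lipid and grow. Its FPKM was 93.1, 90.8 and 84.7 in ovaries and 18.8, 17.9 and 21.2 in testes. Replicates of each tissue were close and the tissues far apart, 89.5 ± 4.33 against 19.3 ± 1.71 FPKM (SD, n = 3 each), a 4.65-fold difference (log2 fold change -2.48 ± 0.245, edgeR adjusted p = 0.00109). Both of its transcripts, of 1359 and 1382 bases, carried the CIDE-N domain and had been built from testis RNA, although the gene was higher in ovary. Both had estimated counts in all 6 libraries. The 1359-base transcript held 87.5% of cidec counts in testis 3 and 39.3% to 51.7% in the other libraries. These counts were fractional too, and whether the cidec transcripts share reads was not tested.

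Diacylglycerol acyltransferase 2, encoded by dgat2, catalyses the last step of triacylglycerol synthesis. Its FPKM was 58.0, 23.2 and 27.6 in ovaries and 0.4, 3.37 and 1.63 in testes. All ovaries were above all testes, but the replicates spread more than those of cidec, 2.99-fold in counts among ovaries and 7.64-fold among testes. The ovary mean was 20.2-fold the testis mean, 36.3 ± 18.97 against 1.8 ± 1.49 FPKM (SD, n = 3 each; log2 fold change -4.63 ± 0.851, edgeR adjusted p = 0.00563). Without testis 2 the log2 fold change was -5.52. All 5 transcripts matched the same diacylglycerol acyltransferase 2-like protein and carried its domain. The 3046-base transcript set ovary 1 apart, with 30.2 FPKM there against 2.12 and 5.63 FPKM in ovaries 2 and 3. It held 56.6%, 10.4% and 24.0% of dgat2 counts in ovaries 1 to 3. Of the 5, it alone was also annotated with a fatty acid desaturase domain. Whether this transcript takes up reads of another gene was not tested. Counts of the dgat2 transcripts were fractional too, and so was their sum in ovaries 1 to 3 (2577.16, 862.52 and 1204.47). Whether they share reads, with each other or with transcripts outside dgat2, was not tested.

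Levels of the ovary-high genes in the 3 testes were set beside the egg envelope genes, which were lowest in testis 1 and highest in testis 2. Receptor transcripts followed that order, with 1.10, 22.5 and 8.65 CPM in testes 1, 2 and 3, and so did dgat2, with 1.03, 8.03 and 3.86 CPM. Per 1000 egg envelope counts the receptor stood at 0.958, 0.667 and 1.02 in testes and at 3.18, 5.99 and 3.47 in ovaries. For dgat2 the same ratio was 0.894, 0.238 and 0.456 in testes and 0.719, 0.293 and 0.288 in ovaries, so the tissues overlapped. The CPM of scarb1 was 18.6, 20.9 and 26.3 and that of cidec 21.0, 20.0 and 23.3 in testes 1 to 3, while the egg envelope genes ranged from 1150 to 33732. The part of oocyte RNA in these testis levels was not tested.

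**Figure D4:**
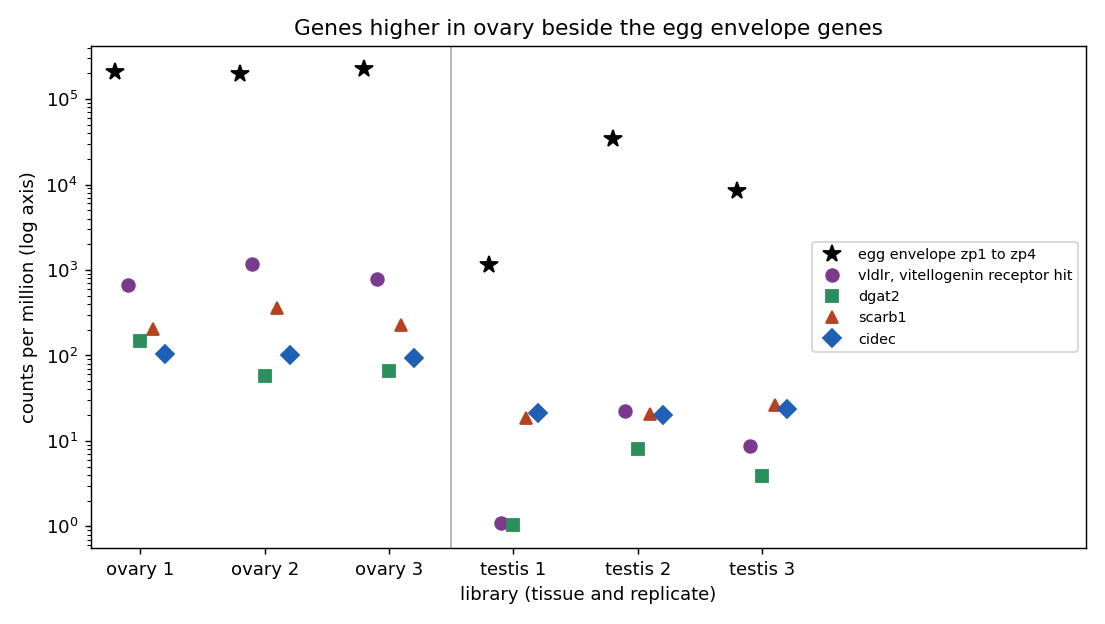
CPM, counts scaled to library size (log axis), in each library for egg envelope genes zp1 to zp4 summed, receptor-matched vldlr transcripts, dgat2, scarb1 and cidec, shifted sideways for legibility. Among testes the egg envelope genes, the receptor transcripts and dgat2 are lowest in testis 1 and highest in testis 2, while scarb1 and cidec stay between 18.6 and 26.3.

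The transcription factors pparg and cebpa drive fat cell differentiation in mammals, where they raise each other's expression and that of lipid storage genes. Both were low in the gonads and higher in testis, the opposite direction to cidec and dgat2. The level of pparg was 0.45, 0.46 and 0.11 FPKM in ovaries and 2.11, 2.83 and 6.24 FPKM in testes, from 6 to 23 counts per ovary and 86 to 222 per testis. Testis exceeded ovary 10.96-fold (log2 fold change 3.22 ± 0.861, edgeR adjusted p = 0.0209). Its 3243-base transcript was built from testis RNA and matched the known Japanese eel pparg messenger. The call was lost without ovary 1, 2 or 3 (adjusted p = 0.0589, 0.0591 and 0.0564) or testis 3 (0.0741), and without testis 3 the log2 fold change was 2.57. The order of the testes was also that of the summed Sertoli and Leydig and the summed follicle somatic markers, though not of each marker. The part of these cells in the pparg difference was not tested.

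The level of cebpa was 0.42, 0.51 and 0.42 FPKM in ovaries and 1.21, 2.84 and 2.7 FPKM in testes, from 15 or 16 counts per ovary and 34 to 78 per testis. The tissues did not overlap, but the difference passed the threshold narrowly (log2 fold change 2.07 ± 0.708, edgeR adjusted p = 0.0484). It was lost on leaving out any library but testis 1 (adjusted p from 0.134 to 0.155) as well as under limma-voom (0.0906), without the filter on low counts (0.0730), with transcripts of at least 1000 bases (0.0559) and with DESeq2 size factors (0.0546). Its 2312-base transcript carried a basic leucine zipper domain. Adipocyte markers gave no call between the tissues in 3 tested. The adipocyte genes found were fabp4, plin1, cfd and lpl, whose summed FPKM was 672 to 975 in ovaries and 445 to 1123 in testes, nearly all of it fabp4.

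Other genes of the pathway were read from 8 lists holding 189 symbols, of which 100 were in the table and 99 were tested. Of the 99, 25 were called higher in ovary and 21 higher in testis, beside 21.1% and 24.8% of all genes, and their median log2 fold change was -0.10 against 0.11 for all genes. The lists were chosen with earlier results of these data known.

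Among 13 lipoprotein receptors and their adaptors, 6 were higher in ovary and 3 higher in testis; their median log2 fold change was -1.06. The clathrin adaptor dab2, which links LDL receptor family tails to coated pits, was at 66.4 ± 10.2 FPKM in ovary and 16.1 ± 2.87 in testis (edgeR adjusted p = 0.00144). The sorting receptor sort1 was also higher in ovary, at 30.7 ± 4.70 against 13.4 ± 2.27 FPKM. Its relative sorl1 went the other way, from 6.19 ± 1.86 FPKM in ovary to 30.1 ± 4.66 in testis, as did lrp12, from 1.83 ± 0.722 to 59.6 ± 23.3 FPKM. Another symbol, lrp4, was examined after its values were seen, because 7 of its 8 transcripts had as best protein match a very low-density lipoprotein receptor-like protein. Those 7 were at 110 ± 19.7 FPKM in ovary and 14.8 ± 10.8 in testis (log2 fold change -3.06, edgeR adjusted p = 0.0104), and without testis 2 the log2 fold change was -3.85. The remaining transcript, of 7745 bases, was higher in testis, at 0.61 ± 0.191 against 3.55 ± 1.71 FPKM (adjusted p = 0.0183).

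Of 18 genes of the clathrin coat, 4 were higher in ovary, 3 higher in testis and 11 not called. The clathrin light chain gene cltb was at 44.7 ± 18.0 FPKM in ovary and 9.44 ± 4.29 in testis, and the assembly protein gene picalm at 38.9 ± 1.41 and 10.2 ± 4.83 FPKM. The adaptor subunit gene ap2s1 was called higher in ovary, although its FPKM overlapped between tissues and 5 of the alternative settings lost the call. By contrast fcho1, which acts early in pit formation, was at 3.08 ± 1.45 FPKM in ovary and 47.2 ± 13.4 in testis (edgeR adjusted p = 0.00170). Of 4 tested genes for yolk proteases and their inhibitor, 2 were higher in ovary. These were cathepsin D, which cleaves vitellogenin in fish and birds, at 175 ± 11.9 FPKM against 34.3 ± 10.05 (ctsd), and cathepsin B at 724 ± 12.003 against 85.3 ± 52.3 (ctsb), whose log2 fold change moved from -3.34 to -4.00 without testis 3. Cathepsin L (ctsl, 95.0 ± 75.5 against 78.9 ± 27.7 FPKM) and the cathepsin inhibitor cstb (127 ± 10.7 against 111.0 ± 39.1) were not called.

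Of 6 genes for lipoproteins, lipases and lipase inhibitors, 2 were higher in each tissue. Endothelial lipase, lipg, which hydrolyses phospholipids of high-density lipoprotein, was at 198 ± 79.4 FPKM in ovary and 3.79 ± 1.61 in testis (log2 fold change -5.96 ± 0.573, edgeR adjusted p = 0.00102). The lipoprotein lipase inhibitor angptl4 was at 2.96 ± 0.799 FPKM in ovary and 35.8 ± 20.3 in testis. The call of apoeb, an apolipoprotein E gene higher in testis (3.1 ± 1.07 against 11.99 ± 4.03 FPKM), was lost in 6 of the alternative settings.

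Of 15 lipid droplet proteins other than cidec, 4 were higher in ovary and 2 higher in testis. The related gene cidea was the most abundant of the 4 named, at 583, 394 and 533 FPKM in ovaries and 1.1, 32.6 and 4.99 FPKM in testes (log2 fold change -5.46 ± 1.25, edgeR adjusted p = 0.0122). Without testis 2, its highest testis, the log2 fold change was -7.53. Its testis levels had the order of the egg envelope genes, unlike those of cidec. The droplet coat gene plin2 was at 119 ± 35.1 FPKM in ovary and 20.8 ± 6.95 in testis. The monoglyceride lipase mgll (11.7 ± 2.32 against 5.62 ± 1.59) was called higher in ovary and faf2 (18.3 ± 3.24 against 42.4 ± 7.01) higher in testis, with calls lost in 4 and 5 of the alternative settings.

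Triacylglycerol and sterol ester synthesis had 14 tested genes besides dgat2, of which 1 was higher in ovary and 3 higher in testis. The acyltransferase gene agpat1 was at 54.9 ± 27.1 FPKM in ovary and 14.9 ± 2.46 in testis. In the other direction, gpat2, a glycerol-3-phosphate acyltransferase gene expressed in mouse testis, was at 8.24 ± 1.54 and 147 ± 25.3 FPKM (edgeR adjusted p = 0.000989). The fatty acid activating enzymes acsl1 (5.17 ± 2.55 against 19.9 ± 5.55 FPKM) and acsl4 (3.27 ± 0.746 against 8.81 ± 1.51 FPKM) were higher in testis, the call of acsl1 being lost in 3 of the alternative settings. The other acyltransferase of the last step, dgat1, did not pass the test, at 34.7 ± 7.70 FPKM in ovary and 26.8 ± 7.08 in testis.

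Of 13 genes of sterol traffic, 4 were higher in ovary and 1 in testis. Lysosomal acid lipase, lipa, which frees cholesterol from endocytosed esters, was at 35.1 ± 13.8 FPKM in ovary and 10.9 ± 3.92 in testis, a call lost without ovary 3 (adjusted p = 0.0541). The sterol transfer genes stard3 (40.9 ± 15.0 against 12.3 ± 3.62) and osbpl1a (85.6 ± 7.08 against 12.7 ± 9.85) were higher in ovary, and the log2 fold change of osbpl1a moved from -3.11 to -3.84 without testis 1. The cholesterol ester hydrolase gene nceh1 was higher in testis, at 0.95 ± 0.191 against 25.8 ± 5.90 FPKM (edgeR adjusted p = 0.000972). Among 16 transcription factors and cofactors of lipid metabolism other than pparg and cebpa, 2 were higher in ovary and 7 higher in testis; their median log2 fold change was 0.98. The carbohydrate-responsive factor mlxipl was at 0.2, 0.28 and 0.33 FPKM in ovaries and 35.0, 79.2 and 94.8 FPKM in testes (log2 fold change 7.77 ± 0.588, edgeR adjusted p = 0.000828). The corepressor ncor1 was also higher in testis (17.1 ± 4.795 against 103 ± 66.7 FPKM). The mediator subunit med1 (249 ± 48.6 against 31.0 ± 17.5) and znf423, which commits cells to the fat lineage in mouse (16.7 ± 1.29 against 1.02 ± 0.420), were higher in ovary.

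**Figure D5:**
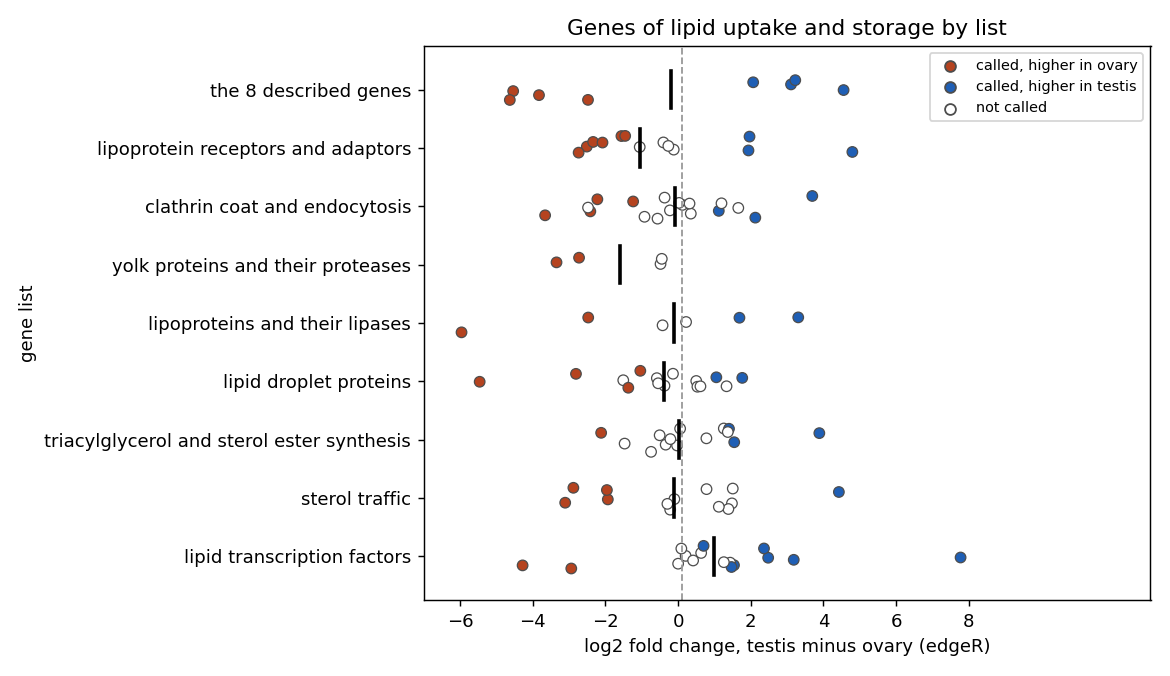
The log2 fold change, testis minus ovary, of each tested gene of the 8 described genes and the 8 lists, coloured by call, with a bar at each list's median and a dashed line at the median of all genes, 0.11. The transcription factors have the highest list median, 0.98, and the receptors and adaptors one of -1.06.

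The genes whose profile over the 6 libraries lay nearest to that of vldlr were sept9, clmp, bnipl, otop1 and manf. Likeness was the Euclidean distance between centred log2(FPKM + 1) values, and 5984 genes with a mean of at least 10 FPKM were compared. The distances ran from 0.372 for sept9 to 0.595 for manf. The septin gene sept9 was at 27.5, 49.4 and 36.4 FPKM in ovaries and 1.33, 1.05 and 1.86 in testes, with its highest level in ovary 2, as for vldlr. The levels of manf were 338 ± 20.6 FPKM in ovary and 22.3 ± 4.44 in testis. Those of clmp were 20.3 ± 4.48 and 0.33 ± 0.23 FPKM, and those of otop1 24.1 ± 2.62 and 0.307 ± 0.252. At levels under 1 FPKM the added 1 shrinks differences, so a near profile need not have the fold of vldlr. Since these distances use the whole vldlr sum, they take in the 3 transcripts without the receptor match.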

How the data were processed

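The deposited table lists full-length transcripts with estimated counts and FPKM for 3 ovaries and 3 testes. The authors' estimated counts are not all whole numbers and their FPKM values are scaled by length and depth, per the file headers and values; the submitters' processing notes list featureCounts 1.5.0-p3, HISAT2 2.0.5, fastp and CASAVA 1.8 with no role for any. Neither the quantifier nor a genome build is given in the sources used here. The labels' protocols name the TRIzol extraction and the NEBNext Ultra kit; whether counting used strand is not given.

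Counts and FPKM were summed by the SwissProt symbol of vertebrate matches (31079 transcripts), leaving 13194 features with unnamed transcripts kept apart. Summed counts were rounded and tested in edgeR 4.0.16 (R 4.3.3; TMM, low-count filter, robust quasi-likelihood, 3 against 3); p-values were adjusted over all features by Benjamini-Hochberg. Standard errors were the log2 fold change divided by the root of F. The fit was tested on simulated data. Alternatives used DESeq2 1.42.0 and limma 3.58.1, other filters, a replicate block and each library left out. Ovaries and testes came from different fish, so replicate numbers do not pair fish. Same-numbered libraries' deviations correlated at -0.0276, 0.00592 and -0.0311, and only ovary 2 correlated best with the testis of its own number. With 3 libraries per tissue these values cannot exclude a shared batch.

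The members and lists were chosen with earlier results of these data known. Named genes were all 8 members, up to 4 per list with the smallest adjusted p whose tissue of higher level averaged 1 FPKM or more, and the 5 nearest to vldlr. The genes dgat1 and lrp4, and the vldlr split, were chosen after values were seen. No sequence was used here. A gene that the naming rule selects from the lists is not reported here.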

Additional observations from a re-analysis of the deposited data

How the results depend on the processing

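Of 559 values of 40 named genes under the alternatives, 510 kept direction and side of the threshold, 48 lost the call, in 9 genes, and 1 reversed: ctsl, never called, ran from -0.88 without testis 3 to 0.40 without ovary 3. Of the 8 genes, 6 kept their call in every alternative run; 6 to 8 were called on leaving out a library, and with a replicate block 6 were called, pparg (adjusted p = 0.0767) and cebpa (0.129) being lost. Of the list genes 46 were called, and 33 with the replicate block. List calls ranged from 27 (without ovary 2) and 30 (without ovary 1) to 51 with a library left out. The cause was not tested.

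Calls of single transcripts moved with the setting. Beside the 8 member transcripts called (26 at an unadjusted p under 0.05), DESeq2 gave 24, limma on log2(FPKM + 0.1) 16, limma-voom 4, no filter on low counts 2 and the replicate block 0 (23 unadjusted). Leaving out a library gave 0 to 2 (22 to 28 unadjusted). Over all transcripts edgeR called 3276, and DESeq2 9907, limma 5237 with a pseudocount of 1 and 6164 with 0.1, limma-voom 1836, no filter 1570, the replicate block 0 (7300 unadjusted), and leaving out testis 1 1439; leaving out any other library gave 0 (7992 to 8493 unadjusted). Over all genes 5681 were called, and 3895 to 6553 under the alternatives. The share of vldlr counts in receptor transcripts fell by 55.1 to 74.7 points from ovary to testis with a library left out, and that in the 3294-base transcript was 39.2 to 67.5 points higher. On log2(FPKM + 1) the fold changes of low genes are smaller by construction. Depth limits pparg and cebpa, which had 6 to 23 counts per ovary.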
